A study of Homo sapiens with 4 samples.

Results

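The kinesins are the protein-coding genes of GENCODE release 29 whose symbol starts with KIF and a number or with KIFC and a number. This rule found 43 genes among the 58735 genes of the count files, and all were matched by Ensembl gene identifier. By their textbook roles, 14 were set down as mitotic kinesins, 15 as transport kinesins and 13 as kinesins with other roles. The remaining gene, KIF1BP, matches the pattern by name, but its product is a protein that binds kinesins and is no motor. It is therefore given on its own, which leaves 42 motor genes. CENPE and STARD9 encode kinesins under other symbols and were not members.

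RNA was sequenced from A549 cells, an established human lung adenocarcinoma line, in 4 libraries. The 2 shControl libraries came from cells infected with a lentivirus carrying a control hairpin, labelled wild type. The 2 shRALY libraries came from cells infected with a lentivirus carrying a hairpin against RALY, the gene of an hnRNP that binds RNA, labelled as a RALY knockdown. All 4 libraries come from infected cells of this single line and are labelled day 2, with no uninfected sample. The labels give no separate culture for each replicate. The p-values below therefore reflect how far these libraries spread, which may be technical. A fit without 1 library keeps 1 library in that group, so its p-value rests on the spread within the other group. The files give raw read counts per gene, 16745818 to 18632787 per library. RALY itself had 123 and 133 CPM (the read count normalised for library size and composition) in shControl and 40.9 and 41.5 CPM in shRALY. It was 3.12-fold lower in the libraries that target it (log2 -1.64, SE 0.11, edgeR adjusted p = 5.85e-11). The labels call the cells alveolar basal epithelial. Of 5 epithelial markers, KRT8 and KRT18 stood at 3723 and 1696 CPM in shControl and did not pass, and EPCAM stood at only 2.68 CPM. KRT8, KRT18 and KRT14 share over 20% of their 50-base words with another gene, which makes their counts uncertain. KRT19 was higher in shRALY by 3.27-fold (log2 1.71, edgeR adjusted p = 1.35e-11). CDH1 was higher by 1.38-fold (edgeR adjusted p = 0.019), a call that ended with DESeq2 (adjusted p = 0.052), without shControl replicate 1 (edgeR adjusted p = 0.134) and without shRALY replicate 2 (edgeR adjusted p = 0.253). The basal keratins KRT5 and KRT14 and the surfactant genes SFTPC, SFTPB and SFTPA1 had group means between 0 and 0.115 CPM in shControl, where 3 counts are worth 0.167 and 0.176 CPM. The basal factor TP63 was lower, at 3.32 against 1.47 CPM (edgeR adjusted p = 0.00726), a call that ended with DESeq2 (adjusted p = 0.0777) and without shRALY replicate 1 (edgeR adjusted p = 0.0743). The alveolar gene ABCA3 stood at 87.7 and 95.4 CPM.

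Kinesins are motor proteins that use ATP to move along microtubules or to take microtubule ends apart. Mitotic kinesins build the spindle, move and align chromosomes, and complete the division of the cell, and many of their genes are switched on only as a cell approaches mitosis. Transport kinesins carry vesicles, mitochondria, endosomes and ciliary cargo, and their genes are used in dividing and resting cells alike.

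Every kinesin classed as mitotic and abundant enough to test was lower in shRALY, while most transport kinesins did not pass the test. KIF2A, which has roles at spindle poles and in resting cells, was classed under other roles and did not pass. Of the 14 mitotic kinesins, 12 were tested and 12 were lower, by 3.86-fold to 12.2-fold, with a median log2 fold change of -3.03. Of the 15 transport kinesins, all 15 were tested, 2 were lower (KIF3B and KIF5B) and 13 did not pass, with a median of -0.14. Of the 13 kinesins with other roles, 10 were tested, and KIF26A, KIF24 and KIF21B were lower. KIF1BP was lower too.

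Over the whole family, 38 of 43 genes had enough counts to test, 18 were lower and 0 higher at an edgeR adjusted p under 0.05. By DESeq2 the number higher was 0 as well, against 16.8% of all genes it tested, and with edgeR it was 0 before adjustment too. Over all 15912 genes tested, 41.0% passed the test, 20.4% being lower and 20.6% higher, and the median log2 fold change was -0.01. Falls of 2-fold or more were called in 15 of the 38 tested kinesins, against 6.57% of all tested genes. Falls of 4-fold or more were called in 11 of the 12 tested mitotic kinesins and in 0 of 15 transport kinesins, against 2.07% of all tested genes. The log2 fold changes of the mitotic kinesins ran from -3.61 to -1.95 and those of the transport kinesins from -0.89 to 0.34. The classes as drawn up thus did not overlap, but would with KIF2A (log2 -0.14) counted as mitotic. No test between the classes was made, and the classes were drawn up with earlier results of these data known. Each of the 12 tested mitotic kinesins had at least 43 counts in every library, so none passed the filter on low counts through 1 group alone. In bulk RNA, fewer cells in division and less kinesin mRNA per cell cannot be told apart.

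**Figure D1:**
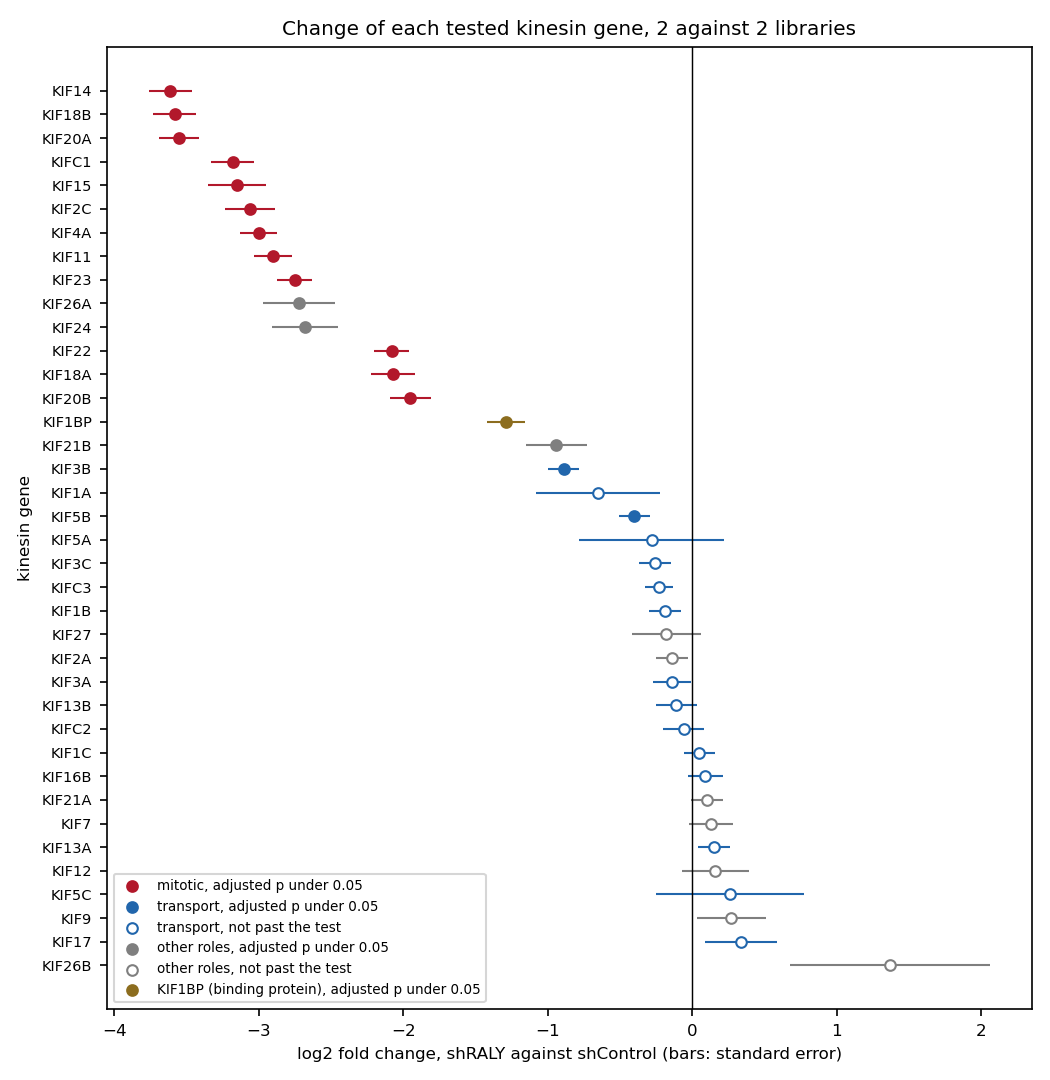
Log2 fold change (horizontal axis) of each of the 38 tested kinesin genes (vertical axis), shRALY against shControl with 2 libraries each; bars are standard errors, filled points have an edgeR adjusted p under 0.05 and colours give the class. The 12 mitotic genes sit at -1.95 or below, and the transport genes between -0.89 and 0.34.

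The promoters of the kinesins of every class were examined as a description of sequence, and no test was made. RefSeq promoter windows on GRCh38.p14, from 250 bases before to 50 bases after the start site, were at hand for 35 of the 43 genes. The cell cycle genes homology region (CHR) is a short element, TTTGAA or TTCGAA, that is bound by the MuvB complexes which regulate genes of late cell cycle, and it often lies downstream of CCAAT boxes, the sites of the factor NF-Y. Either CHR form stood in the windows of 11 of 14 mitotic kinesins, 1 of 11 transport kinesins and 1 of 9 others, against 19.5% of all 27305 genes with a window, counting both strands. A CCAAT box stood in 11 of 14, 4 of 11 and 3 of 9, against 39.7% of all genes. Both elements together stood in 10 of 14 mitotic kinesins, 1 of 11 transport kinesins and 1 of 9 others, against 7.85% of all genes. The E2F-type motif was searched as TTGGCGC, whose opposite strand can overlap a CCAAT box, as TTCGCGC, and also in the form TTCCCGC. It stood in 3 of 14, 3 of 11 and 2 of 9, against 13.1% of all genes and 21.3% of the genes tested here, so its share in the kinesins lay near that of tested genes. Among tested genes the share was 15.4% for the CHR, 42.5% for the CCAAT box and 6.4% for both. Of the 12 tested mitotic kinesins, 10 held a CHR, 10 a CCAAT box and 9 both. The 14 also include KIF2B and KIF4B, which were not tested. With only the 200 bases before the start site searched, the CHR stood in 6 of 14 mitotic and 1 of 11 transport kinesins against 13.5% of all genes, and both elements in 5 of 14 and 1 of 11 against 4.33%. A gene with several windows counts once if any of them matched. Matches are descriptions of the letters and no measure of binding.

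The sequences of 4 mitotic kinesins show the recurring arrangement of a CCAAT box and a CHR near the start site. They are followed by KIF24, a kinesin of another class that fell 6.39-fold, and by KIF13A, a transport kinesin with none of these elements in its window. The printed genes are a selection, and others go against the arrangement. KIF2C (8.32-fold) and KIF26A (6.59-fold) fell with neither element in their windows, and KIF5B (1.32-fold) held both. Each stretch runs 5′ to 3′ on the gene's strand from 80 bases before to 12 bases after the start site, with GRCh38.p14 coordinates. Capitals mark CHR and CCAAT matches, where ATTGG is the CCAAT box and TTCAAA the CHR read on the opposite strand. Positions are counted from the start site, with the first transcribed base as position 1.
KIF4A (chrX:70290024-70290115, plus strand): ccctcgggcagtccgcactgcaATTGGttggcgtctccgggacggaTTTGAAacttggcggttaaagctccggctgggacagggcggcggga
KIF11 (chr10:92593050-92593141, plus strand): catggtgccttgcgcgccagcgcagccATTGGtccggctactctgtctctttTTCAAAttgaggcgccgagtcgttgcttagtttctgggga
KIF14 (chr1:200620740-200620831, minus strand): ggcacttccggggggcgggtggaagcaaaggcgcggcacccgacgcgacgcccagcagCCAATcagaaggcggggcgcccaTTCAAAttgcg
KIF18B (chr17:44947762-44947853, minus strand): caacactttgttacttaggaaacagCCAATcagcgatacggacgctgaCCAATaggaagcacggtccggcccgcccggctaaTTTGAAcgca
KIF24 (chr9:34329257-34329348, minus strand): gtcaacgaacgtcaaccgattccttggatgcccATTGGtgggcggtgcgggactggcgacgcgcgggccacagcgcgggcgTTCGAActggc
KIF13A (chr6:17987624-17987715, minus strand): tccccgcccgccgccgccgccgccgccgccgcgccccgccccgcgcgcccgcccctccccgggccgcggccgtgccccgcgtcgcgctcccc

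In KIF4A, KIF11, KIF14, KIF18A, KIF18B, KIF22, KIF23, KIFC1 and KIF24 the CCAAT box preceded the CHR. The distance between their first bases was 23 in KIF14, 24 in KIF4A, 25 in KIF11, 34 in KIF18B and 35 in KIF18A, and it was 9 in KIF23 and 50 in KIFC1. In KIF22 it was 39 and in KIF24 48. KIF15 had a CHR at position -35 and no CCAAT box in its window. KIF20B had CHR matches at positions 25 and 31, and CCAAT boxes at -131 and -98. KIF20A had CCAAT boxes at -94 and -67 and no CHR match, and KIF2C had neither, in these windows. The transport kinesin KIF5B held a CHR match at -140, upstream of its CCAAT box at -59. Of the 35 first windows, 14 have a RefSeq start upstream of the GENCODE 29 gene, among them those of KIF11, KIF14, KIF18B and KIF13A, by 156, 17, 62 and 12 bases. For KIF24 the upstream distance is 17897 bases, and for no other kinesin is it over 367. The other first windows have a start at or inside the GENCODE gene, and how far inside was not measured. That can be far, as in KIF5C, whose gene starts at 148875250 on chromosome 2 and whose first window runs from 148947625 to 148947924.

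**Figure D2:**
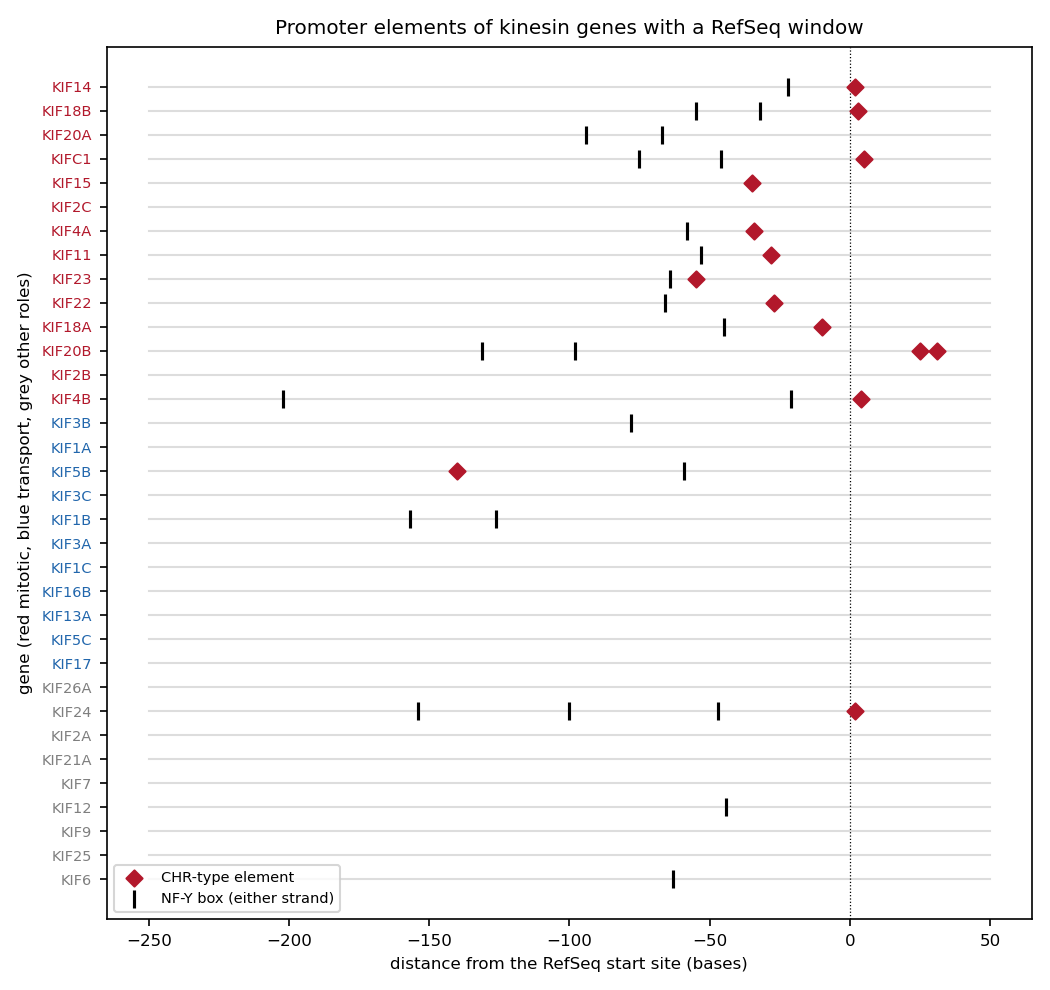
Distance in bases from the RefSeq start site (horizontal axis) of CHR-type elements (diamonds) and CCAAT boxes, labelled NF-Y boxes (bars), in the first promoter window of each of the motor genes that has a window (vertical axis, coloured by class). A CHR-type element follows a CCAAT box in most mitotic kinesins, and among the transport kinesins shown KIF5B alone has one.

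Kinesins that assemble the bipolar spindle were 7.45-fold to 9.08-fold lower. KIF11 (GRCh38 chromosome 10, 92593286 to 92655395), the motor that slides antiparallel microtubules and pushes the spindle poles apart, had 154 and 129 CPM in shControl and 20.2 and 17.7 CPM in shRALY. KIFC1, a minus-end motor that focuses spindle poles and clusters centrosomes, had 58.4 and 59 CPM against 7.07 and 5.81 CPM. KIF15, which can keep spindles bipolar in place of KIF11, had 23.3 and 24.4 CPM against 2.72 and 2.63 CPM. In all 3 genes the shRALY libraries lay far below the shControl libraries and the replicates lay close together. The log2 fold changes were -2.90 (SE 0.13) for KIF11, -3.18 (SE 0.15) for KIFC1 and -3.15 (SE 0.20) for KIF15, with edgeR adjusted p of 3.36e-14, 7.3e-14 and 9.31e-12.

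Kinesins that act on chromosomes and on microtubule plus ends fell by different amounts. KIF18B, which shortens astral microtubules, had 82.1 and 99.6 CPM in shControl and 8.38 and 6.73 CPM in shRALY, a 12-fold fall. KIF18A, which dampens the movement of chromosomes at the metaphase plate, had 57.2 and 46.7 CPM against 13.2 and 11.6 CPM, a 4.19-fold fall. These close relatives of the kinesin-8 family thus differed in the size of the fall, at log2 -3.58 (SE 0.15) and -2.07 (SE 0.15); the difference between them was not tested. KIF2C, a depolymerase that corrects faulty attachments at centromeres, had 63 and 56.1 CPM against 8.54 and 5.69 CPM, at log2 -3.06 (SE 0.17). KIF2A, a relative with roles at spindle poles and in resting cells, had 80 and 71.8 CPM against 68.5 and 69.2 CPM and did not pass the test (log2 -0.14, SE 0.11, edgeR adjusted p = 0.343). Among the chromosome-bound motors, KIF4A had 112 and 101 CPM against 12.9 and 13.6 CPM, and KIF22 had 97.7 and 97.3 CPM against 23.1 and 22.9 CPM. KIF4A fell 8.02-fold and KIF22 fell 4.23-fold, a difference that was not tested. KIF4A shares 14.4% of its 50-base words with KIF4B, an almost silent copy with 1, 6, 2 and 1 counts in the 4 libraries, and how reads that match both were counted is not given in the sources used here.

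Kinesins of the central spindle and of cytokinesis fell by 3.86-fold to 12.2-fold. The order among the steepest falls (KIF14, KIF18B and KIF20A) and among the shallowest (KIF20B, KIF18A and KIF22) is not resolved, since it turned when single libraries were left out. KIF14 (chromosome 1, 200551497 to 200620734), which brings citron kinase to the midbody, had 77.6 and 67 CPM in shControl and 6.04 and 5.81 CPM in shRALY. It fell 12.2-fold (log2 -3.61, SE 0.15, edgeR adjusted p = 8.29e-15). KIF20A (chromosome 5, 138178719 to 138187715), which carries the chromosomal passenger complex to the midzone, had 84.7 and 101 CPM against 8.32 and 7.46 CPM, an 11.7-fold fall (log2 -3.55, SE 0.14, edgeR adjusted p = 5.92e-15). KIF23 (chromosome 15, 69414246 to 69448427), the motor of centralspindlin, had 210 and 177 CPM against 29.9 and 27.4 CPM, and fell 6.75-fold. KIF20B, which takes part in abscission, had 68 and 59.5 CPM against 15.1 and 18 CPM and fell 3.86-fold (log2 -1.95, SE 0.14). For each of these 4 genes the highest shRALY library lay below the lowest shControl library. Such a gap in the same direction was present in 12 of 12 tested mitotic kinesins and in 35.4% of all tested genes. KIF2B had 0 counts in every library, which allows up to 0.163 to 0.183 CPM, the worth of 3 counts in each library,, and neither it nor KIF4B could be tested.

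**Figure D3:**
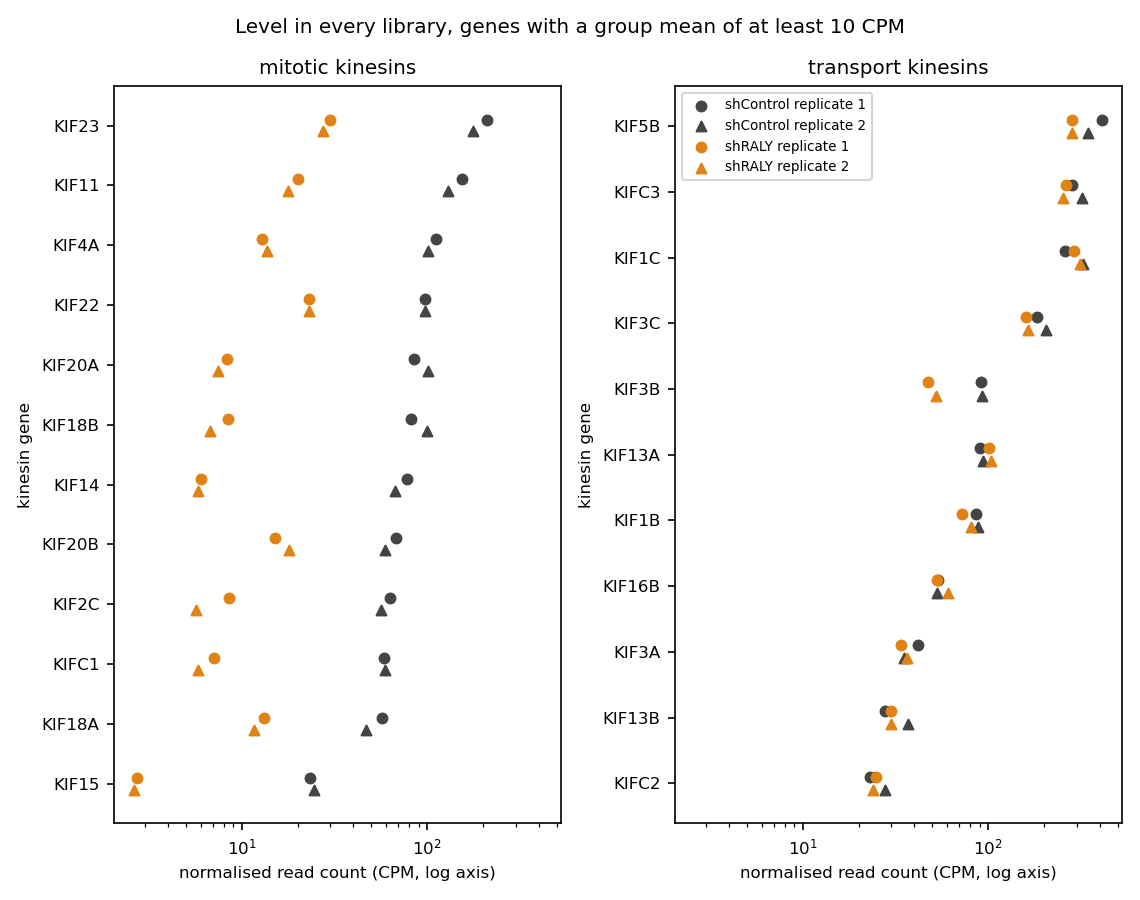
Normalised read count in CPM (horizontal log axis) of kinesins with a group mean of at least 10 CPM (vertical axis) in each of the 4 libraries, mitotic kinesins on the left and transport kinesins on the right. In the left panel the orange shRALY points lie apart from the grey shControl points for every gene; in the right panel they overlap or lie close, with KIF3B farthest apart.

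Among transport kinesins, the heavy chain of conventional kinesin was lower in shRALY by a small amount. KIF5B (chromosome 10, 32009010 to 32056431), which carries mitochondria, vesicles and mRNA, had 410 and 344 CPM in shControl and 285 and 285 CPM in shRALY. It was lower by 1.32-fold (log2 -0.40, SE 0.11, edgeR adjusted p = 0.00411). That call was lost without shRALY replicate 1 (edgeR adjusted p = 0.114) and without shRALY replicate 2 (edgeR adjusted p = 0.117), where the fold change stayed at log2 -0.40 and -0.39. Its neuronal relatives KIF5A and KIF5C lay at 1.42 ± 0.90 and 0.86 ± 0.111 CPM in shControl (SD, n = 2) and did not pass.

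The heterotrimeric kinesin-2 motor pairs KIF3A with KIF3B or KIF3C, and its subunits differed. KIF3B (chromosome 20, 32277664 to 32335011) had 92 and 93.1 CPM in shControl and 47.4 and 52.4 CPM in shRALY, a 1.86-fold fall (log2 -0.89, SE 0.11, edgeR adjusted p = 1.14e-06) that held in every alternative run. Its partner KIF3A had 42 and 35.3 CPM against 33.8 and 36.4 CPM, with overlapping groups (log2 -0.14, SE 0.13, edgeR adjusted p = 0.417). KIF3C, the alternative partner, had 183 and 205 CPM against 160 and 165 CPM, with both shRALY values below both shControl values (log2 -0.26, SE 0.11, edgeR adjusted p = 0.058). It passed with library size alone (edgeR adjusted p = 0.0209) and with a block for replicate number (edgeR adjusted p = 0.021). Without shControl replicate 1 KIF3C stood at log2 -0.34. The adaptor subunit KIFAP3, which is no member, had 22.1 ± 6.26 and 27.5 ± 1.68 CPM (log2 0.32, edgeR adjusted p = 0.13). KIFAP3 passed as higher with the block (edgeR adjusted p = 0.0366), and without shControl replicate 1 it stood at log2 0.64.

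The kinesin-3 motors of the transport class, which carry synaptic vesicle precursors, endosomes and dense-core vesicles, did not pass the test with all libraries. KIF14, a kinesin-3 motor of the mitotic class, is given above. KIF1C had 259 and 325 CPM in shControl and 290 and 313 CPM in shRALY, KIF13A had 90.5 and 94.2 against 101 and 104 CPM, and KIF1B had 86.3 and 88.2 against 72 and 81 CPM. The shRALY values of KIF1C lay within the range of the shControl values. Without shControl replicate 2, the library with its highest value, KIF1C stood at log2 0.24. KIF16B, an early endosome motor, had 53.6 and 53.2 against 53.3 and 60.5 CPM. KIF13B had 27.8 and 36.8 against 29.9 and 29.8 CPM, and stood at log2 -0.30 without shControl replicate 1. KIF1A, mainly a motor of nerve cells, had 1.78 ± 0.063 and 1.13 ± 0.216 CPM (log2 -0.65, SE 0.43, edgeR adjusted p = 0.244).

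Of the minus-end transport motors, neither passed the test. KIFC3, which acts at cell junctions and in Golgi positioning, had 282 and 323 CPM in shControl and 263 and 253 CPM in shRALY, with both shRALY values below both shControl values (log2 -0.23, SE 0.10, edgeR adjusted p = 0.087). KIFC3 passed as lower with library size alone (edgeR adjusted p = 0.0337) and with the block (edgeR adjusted p = 0.0301). Without shControl replicate 1 KIFC3 stood at log2 -0.33. KIFC2 had 23 and 27.9 against 24.9 and 24 CPM, with overlapping groups. KIF17, a dendritic and ciliary motor of the kinesin-2 family, had 3.99 ± 0.506 and 5.07 ± 0.785 CPM (log2 0.34, SE 0.25). Of the 15 transport kinesins, 6 had both shRALY libraries below both shControl libraries, 2 had both above and 7 overlapped, against 35.4% below and 34.2% above among all tested genes. These shares lie near or below the background. The median log2 fold change of the class went from -0.14 to 0.10 without shControl replicate 2, and the number of calls in it was 5 without shControl replicate 1, where 21.0% of all genes were lower, and 1 without shRALY replicate 1 or 2, where 11.3% and 11.7% were.

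Outside these classes, the falls of KIF26A and KIF24 lay within the range of the mitotic kinesins. KIF26A (chromosome 14, 104138723 to 104180894), an atypical kinesin known for a role in signalling rather than movement, had 14.5 and 18.1 CPM in shControl and 1.74 and 3.24 CPM in shRALY, a 6.59-fold fall (log2 -2.72, SE 0.25, edgeR adjusted p = 6.67e-09). KIF24 (chromosome 9, 34252381 to 34311371), a centriole-bound depolymerase that restrains the growth of cilia, had 14.3 and 19.7 against 2.45 and 2.87 CPM, a 6.39-fold fall (log2 -2.68, SE 0.23, edgeR adjusted p = 1.99e-09). The promoter window of KIF24 held a CHR and 3 CCAAT boxes, and that of KIF26A held neither element. KIF21B, which limits microtubule growth, had 12 and 13.5 against 5.49 and 7.83 CPM (log2 -0.94, SE 0.21, edgeR adjusted p = 0.000776). Its relative KIF21A had 61.8 and 56.4 against 62.9 and 63.7 CPM and did not pass (log2 0.10, SE 0.11). KIF7, which works at the tip of the primary cilium in Hedgehog signalling, had 21.9 and 27.9 against 27.6 and 26.9 CPM (log2 0.13, SE 0.15), again with overlapping groups.

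KIF1BP (chromosome 10, 68988721 to 69043544), which binds several kinesins and blocks their attachment to microtubules, had 71.7 and 63.4 CPM in shControl and 29.7 and 25.4 CPM in shRALY. It fell 2.45-fold (log2 -1.29, SE 0.13, edgeR adjusted p = 2.11e-08). KIF12, KIF9 and KIF27, with group means between 4.18 and 5.92 CPM, did not pass, and KIF27 shares 26% of its 50-base words with another gene, which makes its count uncertain. KIF26B had 2, 12, 27 and 10 counts, too few for a stable value (log2 1.37, SE 0.69, edgeR adjusted p = 0.123). Without shControl replicate 2 KIF26B stood at log2 3.17. KIF25 had 10, 5, 7 and 0 counts, KIF6 had 2, 1, 0 and 2, and KIF19 had 0 in every library, so none of the 3 was tested.

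Set per kilobase of annotated exon, which allows a rough comparison of different genes, the order of the family differed between groups. The length joins the exons of all annotated transcripts of a gene, which can be longer than the transcript in use and then lowers its value. KIF5B led in both, at 64.2 ± 7.9 CPM per kilobase in shControl and 48.5 ± 0.0275 in shRALY (SD, n = 2). In shControl it was followed by KIF1C (34 ± 5.48), KIFC3 (31.5 ± 3.01), KIF3C (30.3 ± 2.37), KIF23 (29.4 ± 3.57) and KIF11 (29.1 ± 3.58), whose ranges overlapped, so that the order among these 5 is not resolved. In shRALY the same 4 transport kinesins led, at 48.5, 35.2, 26.9 and 25.4 CPM per kilobase, while KIF23 moved from rank 5 to rank 15 and KIF11 from rank 6 to rank 17 of the 43 genes. KIF2A, KIF13A and KIF3B took ranks 5, 6 and 7. The highest mitotic kinesin in shRALY was KIF22, at rank 12 with 5.34 ± 0.0314 CPM per kilobase.

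The make-up of kinesin mRNA differed between the groups, which is given as a description, with no test made, since an exact two-sided permutation test of 2 libraries against 2 cannot go below p = 0.333. Mitotic kinesins held 38% and 35.4% of motor gene counts in shControl and 9.09% and 8.31% in shRALY, or 36.7% ± 1.83 against 8.7% ± 0.555 (SD, n = 2). Transport kinesins held 54.3% and 56.9% against 80% and 80.8%. Per kilobase of exon, mitotic kinesins held 46.6% ± 1.36 in shControl and 12.6% ± 0.861 in shRALY, and transport kinesins 45.5% ± 1.27 and 74.4% ± 0.789. Motor genes as a whole took 0.292% of all counts in each shControl library and 0.169% and 0.17% in the shRALY libraries. The counts of all transport kinesins summed to 27872 and 27849 in the control libraries against 25164 and 23132 in shRALY, and those of mitotic kinesins 19485 and 17330 against 2859 and 2379. The larger share of transport kinesins in shRALY thus came with lower counts of both classes.

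**Figure D4:**
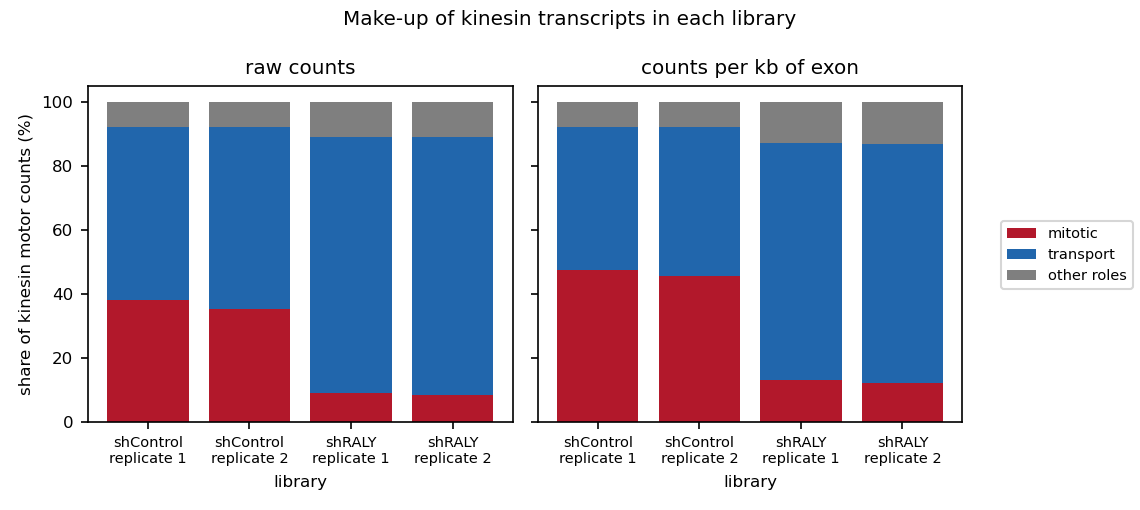
Share in percent of the counts of the 42 motor genes (vertical axis) held by mitotic, transport and other kinesins in each of the 4 libraries (horizontal axis), from raw counts on the left and per kilobase of exon on the right. Mitotic kinesins take 36.7% of raw counts on average in shControl and 8.7% in shRALY.

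Kinesins under other symbols were lower as well. CENPE, the kinesin that moves chromosomes to the metaphase plate, had 57.5 and 46.4 CPM in shControl and 5.98 and 4.83 CPM in shRALY, a 9.56-fold fall (log2 -3.26, SE 0.17, edgeR adjusted p = 2.99e-13). Its window held neither a CHR nor a CCAAT box. STARD9, a very long kinesin that helps hold the material around centrosomes together, had 8.71 and 13 against 6.8 and 6.11 CPM (log2 -0.74, edgeR adjusted p = 0.00855). The STARD9 call was lost with DESeq2 (adjusted p = 0.053), without shControl replicate 2 (edgeR adjusted p = 0.168) and without shRALY replicate 2 (edgeR adjusted p = 0.0757).

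The spindle partners of the mitotic kinesins fell with them, while the lists of transport adaptors and of dynein had medians of -0.05 and 0.03. Of 16 spindle and midzone genes, 16 were lower and 0 higher, against 20.4% and 20.6% of all tested genes, with a median log2 fold change of -3.14; by DESeq2, and by edgeR before adjustment, the number higher was 0 as well. Among these, PRC1 and NUSAP1 have uncertain counts, sharing 63.9% and 68% of their words with another gene, and PRC1, with 31, 47, 5 and 1 counts, passed the filter through shControl. Without both, 14 of 14 were lower, with a median of -3.14. CIT, the citron kinase that binds KIF14, fell 12.8-fold, BIRC5, a subunit of the passenger complex that KIF20A carries, fell 13.9-fold, and the contractile ring scaffold ANLN fell 9.48-fold. The smallest falls of the list were those of ECT2 (2.81-fold) and NUMA1 (1.33-fold). Of 19 tested light chains and cargo adaptors, 6 were higher and 0 lower, against 20.6% and 20.4% of all tested genes, with a median of -0.05. The calls thus all went upward, at a share above that background, which was not tested. Before adjustment the count lower was 1. By DESeq2 it was 0, with 6 higher, against 16.8% higher among all genes DESeq2 tested. The scaffolds SPAG9 and MAPK8IP3, which link kinesin-1 to cargo and to JNK signalling, were higher by 1.5-fold (log2 0.59, SE 0.10, edgeR adjusted p = 7.49e-05) and 1.55-fold (log2 0.63, SE 0.12, edgeR adjusted p = 0.000146). The light chain KLC4 was higher at log2 0.68, but not when shRALY replicate 1 was left out (edgeR adjusted p = 0.0895). Of 19 tested genes of dynein and dynactin, the opposite motor on microtubules, 3 were higher and 2 lower, again fewer calls than the 41.0% of all genes, with a median of 0.03. DYNLL2 (log2 -1.32) and NDE1 (log2 -0.85) were lower and DYNLT3 (log2 0.72), DYNLT1 and DCTN4 were higher, the last 2 at 141% and 132% of shControl. DYNLT1 did not pass without shRALY replicate 2 (edgeR adjusted p = 0.0563), nor did DCTN4 with either shRALY library left out (edgeR adjusted p = 0.0912 and 0.136).

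**Figure D5:**
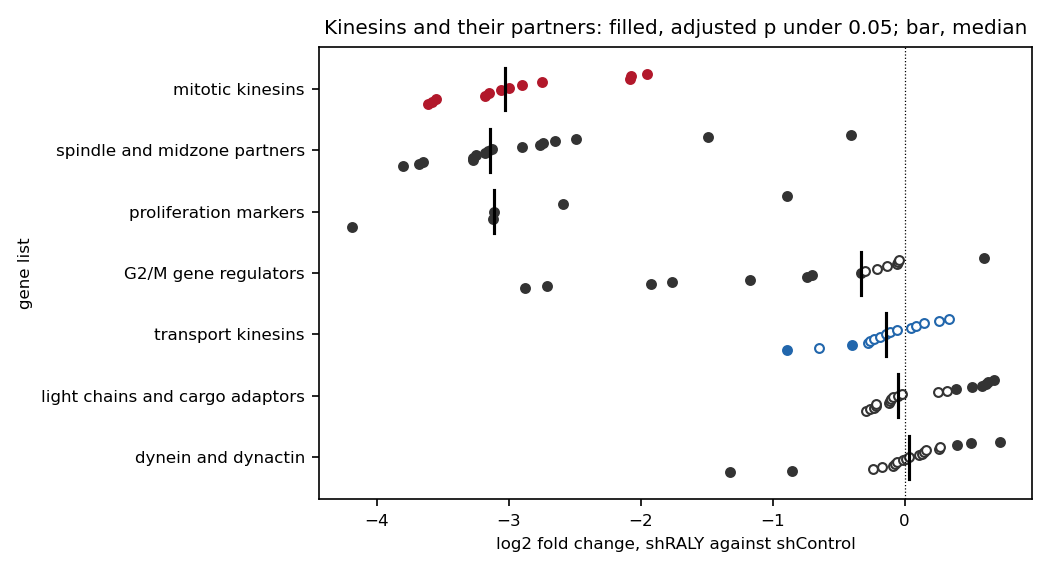
Log2 fold change, shRALY against shControl (horizontal axis), of each tested gene in 7 lists (vertical axis); filled points have an edgeR adjusted p under 0.05 and bars are medians. The medians of the mitotic kinesins, their partners and the proliferation markers lie between -3.14 and -3.03, and those of transport kinesins, adaptors and dynein between -0.14 and 0.03.

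Several regulators and all 5 proliferation markers were lower along with the mitotic kinesins. Of 15 genes of the factors that activate or repress late cell cycle genes, 8 were lower and 1, E2F5, was higher at 152% of shControl, against 20.4% lower and 20.6% higher among all tested genes. FOXM1 fell 7.38-fold, from 150 ± 15.2 to 20.4 ± 0.763 CPM, and MYBL2 fell 6.55-fold; both encode activators. RBL1, which encodes the repressor p107, fell 3.78-fold. LIN54, the MuvB subunit that contacts the CHR, was lower at log2 -0.70 (edgeR adjusted p = 0.00206), but not when shRALY replicate 1 was left out (edgeR adjusted p = 0.0789). Of the NF-Y subunits, NFYB was lower (log2 -0.74, edgeR adjusted p = 0.000111), NFYC did not pass (log2 -0.04), and NFYA was lower at log2 -0.33 (edgeR adjusted p = 0.0433). The NFYA call was lost with DESeq2 (adjusted p = 0.13), without a filter on low counts (edgeR adjusted p = 0.0738), and without shControl replicate 2, shRALY replicate 1 or shRALY replicate 2 (edgeR adjusted p = 0.0593, 0.322 and 0.261). LIN54, the NF-Y subunits, E2F5, DYNLT1, DCTN4, ECT2, NUMA1 and PCNA were singled out after their values were seen. Of 5 proliferation markers, 5 were lower, and their summed level was 2297 and 2223 CPM in shControl and 421 and 406 CPM in shRALY. Among them MKI67 fell 18.2-fold, TOP2A 8.68-fold, CCNB1 6.04-fold and PCNA, the least, 1.85-fold. The part of a lower share of dividing cells in the fall of the mitotic kinesins was not tested.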

How the data were processed

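Counts of reads per Ensembl gene were measured in 4 libraries, 2 shControl and 2 shRALY, grouped by sample title. The deposited files, 1 for each library, hold raw counts without normalisation. The submitters' processing notes name hg38, featureCounts 1.5.0-p3, HISAT2 2.0.5 and DESeq2 1.20.0; which annotation and strand setting were used, and how reads with several matches were counted, is not given in the sources used here. A space in place of a tab on 1 line of 1 file was read as a tab. Per the labels' protocols, RNA was selected on poly-T beads.

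All genes were fitted together with edgeR 4.0.16 in R 4.3.3 (filterByExpr at its minimum count of 10 and total of 15, TMM scaling, robust quasi-likelihood F-test, 2 residual degrees of freedom, no covariate). The p-values were adjusted by Benjamini-Hochberg over the 15912 tested genes and called at 0.05. Standard errors were derived from each log2 fold change and its F statistic. DESeq2 1.42.0 was an alternative, and both tests were run on simulated data with 200 changed genes and 1 dispersion for all genes. In the real data 41.0% of tested genes were called, so this check does not cover scaling when so many genes differ. Exon lengths, coordinates and shared 50-base words come from GENCODE 29; a gene sharing more than 20% with another is called uncertain but stays in the counts of its list. Floors of 3 counts cover counting error only. Kinesins whose mean reached 10 CPM in either group are given in every library, the others by group or count; of each list of related genes, cell type markers apart, the 3 genes with the smallest adjusted p (uncertain genes apart) and CENPE, STARD9 and MKI67 are named. The members, classes and lists were chosen with earlier results of these data known, so no list was tested as a set. Promoter sequences are from RefSeq, GRCh38.p14. Protein sequences were planned but not used here.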

Additional observations from a re-analysis of the deposited data

How the results depend on the processing

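Alternatives changed the test (DESeq2, or edgeR not robust), the scaling (RLE, or library size alone), the filter (none, or 10 CPM in 2 libraries), the genes tested (protein-coding genes alone), the model (a replicate block), the libraries (each left out in turn) and the class of KIF2A, KIF21A and KIF21B. All 12 tested mitotic kinesins were lower in each of these. With KIF2A counted as mitotic, 13 were tested and 12 were lower. The class then ran up to log2 -0.14, within the range of the transport kinesins. Library size alone shifted the median of all tested genes to -0.07 and gave 4 lower transport kinesins, with 23.3% of all genes lower; the replicate block also gave 4, with 22.7%, and 20 lower and 0 higher kinesins in all. Only 2 pairs share a number, with a correlation of deviations of 0.0721, so the numbers were not taken as pairs. The block also leaves fewer residual degrees of freedom than the main fit. With single libraries left out, lower kinesins numbered 17 to 21 and higher ones 0 to 2, lower transport kinesins 1 to 5 and higher ones 0 to 1, and the transport median ran from -0.21 to 0.10 and the mitotic median from -3.08 to -2.92. Over all tested genes, the share lower ran from 11.3% to 21.0% in these fits and the share higher from 12.1% to 21.2%. The numbers of calls can therefore not be compared directly between these fits. Per kilobase of exon, mitotic shares were 47.6%, 45.7%, 13.2% and 12% in the 4 libraries and transport shares 44.6%, 46.4%, 73.9% and 75%. In the 200 bases before the start, 6 mitotic kinesins had a CHR and 5 both elements, against 13.5% and 4.33% of all genes. Groups of 2 limit the precision of every value, and genes under about 10 counts per library could not be resolved.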

Other observations

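Other genes named after kinesins are not protein coding, and 7 of them were in the files. KIF25-AS1, annotated as a long noncoding RNA, had 41 and 27 counts in shControl and 14 and 8 in shRALY (log2 -1.61, SE 0.48, edgeR adjusted p = 0.0103). Its call was lost with DESeq2 (adjusted p = 0.0824), without shControl replicate 1 (edgeR adjusted p = 0.11) and without shRALY replicate 2 (edgeR adjusted p = 0.0953). KIF9-AS1 had 36 and 52 against 58 and 34 counts and did not pass, and 17.9% of the exonic bases of KIF9 lie opposite KIF9-AS1 or KLHL18, with a strand setting not given in the sources used here. The same limit holds for KIFC2 (17.8% opposite another gene), KIF27 (13.1%), KIF22 (13%), KIFC1 (12.7%) and KIF7 (11.8%), and smaller overlaps occur in other kinesins. In KIF2A, 8.97% of exonic bases are shared with IPO11 on the same strand. KIF28P, a pseudogene in human, had 5, 7, 8 and 9 counts, and KIF3AP1, KIF4CP, KIF18BP1 and KIF26B-AS1 had 0 counts in every library.

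The promoter elements of the mitotic kinesins were also counted among other genes. Of 686 tested genes that were lower by 2-fold or more and have a RefSeq window, 17.6% held a CHR together with a CCAAT box, against 5.64% of the 10170 other tested genes with a window. The difference was not particular to this pair. The CHR stood in 28% against 14.5%, the CCAAT box in 54.1% against 41.7%, and the E2F-type motif in 33.1% against 20.5%. The group of 686 includes the mitotic kinesins themselves.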
